A study of Mus musculus with 13 samples.

Results

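Genes of the choroid plexus epithelium were followed in whole brains of 13 mouse embryos with and without Meg3, a maternally expressed long non-coding RNA. The set was a list of 38 symbols, and each gene was represented by the probe set with the highest mean signal among those annotated to that symbol alone. Of the 38, 35 had such a probe set and 30 passed the filter on low signal, among 12920 genes tested of 18193 with a named probe set. Kl, Slc4a5, Tmem72, Lmx1a and F5 had a probe set whose mean signal lay below the filter at 56.9. Enpp2, Prlr and Mfrp had no probe set annotated to them alone and are not analysed here.

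RNA of each embryonic day 18.5 brain was hybridised to 1 Affymetrix mouse genome array, for 7 embryos labelled Meg3 knock-out and 6 labelled wild-type, of 5 litters, stated to be biological replicates. Litter 148 gave 1 knock-out embryo. Litter 219 gave 1 knock-out and 2 wild-type embryos, litter 238 gave 2 knock-out and 1 wild-type, litter 250 gave 2 of each, and litter 262 gave 1 of each. The sources used here do not give the deleted part of Meg3, the strain, the sex of the embryos or any treatment. Meg3 itself had a signal of 264 to 589 in knock-out brains, against 3109 to 6251 in wild-type brains (log2 difference -3.64, limma adjusted p = 1.30e-07), so every array carried the level its label gives. Pearson correlations between arrays over the tested genes (log2) were 0.893 to 0.990. The ratio of the 3-prime to the 5-prime Actb control probe set, a sign of RNA integrity and labelling, was 1.81 in knock-out 1 and 2.92 in wild-type 2, against 1.32 to 1.5 on the other arrays.

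The choroid plexus is a frond of vascular stroma in each brain ventricle that is covered by a tight epithelium derived from the neural roof plate. Its epithelial cells secrete cerebrospinal fluid by moving sodium, chloride, bicarbonate and water, and they carry vitamins, hormones and metals between blood and that fluid. They release transthyretin and other proteins into the ventricles and are held together by a claudin barrier with many microvilli on the ventricular face. In whole-brain RNA the tissue is a small fraction. A lower signal of its genes could come from fewer such cells in the sample, for whatever reason, or from less RNA per cell. These and other sources cannot be told apart here.

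No choroid plexus gene passed the test for genotype. The mean was lower in knock-out brains for 24 of the 30 tested genes and higher for 6, and the median log2 difference was -0.20, against 0.04 over all genes tested. Of all genes tested, 34.6% had a lower mean in knock-out brains. The differences ran from -0.85 for Cldn2 to 0.23 for Trpm3, each with an adjusted p of 1.00 (limma, adjusted over the 12920 genes, of which 0.0232% passed at 0.05). Cldn2 was the 1 gene with an unadjusted p under 0.05, a level that 1.97% of all genes reached in either direction and 0.255% as lower in knock-out brains. With ordinary least squares in place of limma's moderated test, 0 of the 30 reached it. In 0 of the 30 genes did the 7 knock-out values lie apart from the 6 wild-type values, against 0.0774% of all genes.

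Many of the extreme values were those of 3 embryos. Wild-type 3 of litter 238 held the highest of the 13 values for 18 of the 30 genes (6.31% of all genes). Knock-out 7 of litter 262 held the lowest for 13 (14.5% of all genes) and knock-out 4 of litter 238 for 7 (6.49% of all genes). Without those 3 arrays, an alternative chosen after seeing the data, 9 genes had a lower and 21 a higher mean in knock-out brains, and the median was 0.07, against 0.09 over all genes, with 24.5% of all genes lower. The 3 were picked by these same values, so part of that shift was set by the choice. Without knock-out 4 and knock-out 7 alone, 18 were lower and 12 higher, with a median of -0.03, against 0.08 over all genes, of which 25.2% were lower. Of single arrays, leaving out knock-out 7 (-0.10), wild-type 3 (-0.13) or wild-type 6 (-0.33) moved the median most, and of litters, 238 (-0.08) or 250 (-0.41). Centring each array on its median, which put 87.7% of all genes lower in knock-out brains with a median of -0.15, gave 29 lower and 1 higher.

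**Figure D1:**
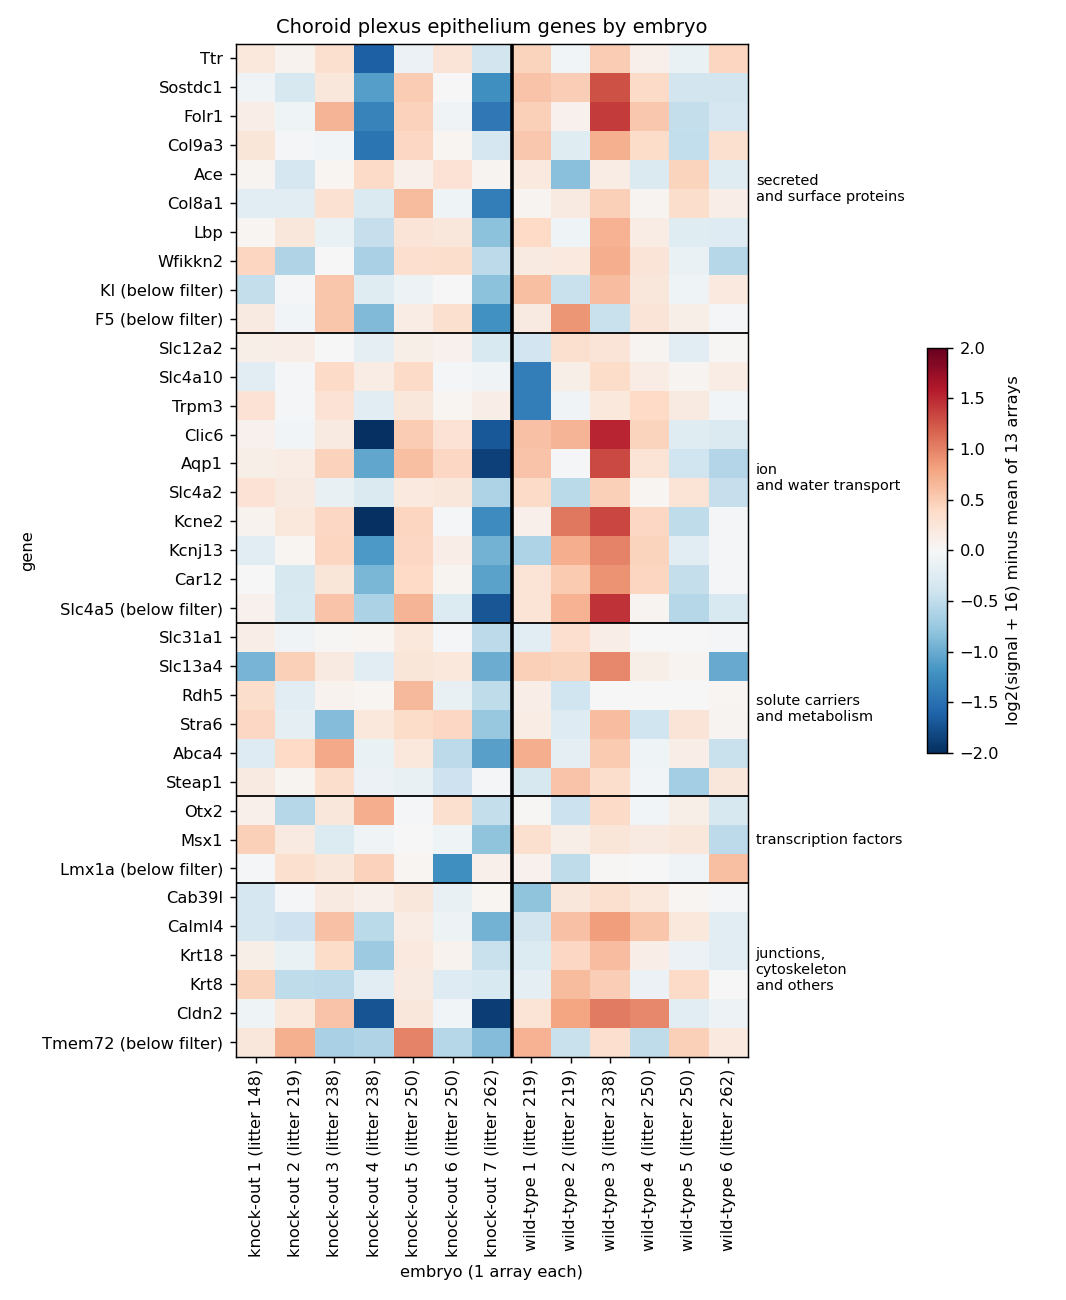
Log2(signal + 16) of each of the 35 choroid plexus genes (rows, by role, with the 5 below the filter marked) in each embryo (columns, knock-out left of wild-type), as the difference from that gene's mean over 13 arrays, with values beyond the colour scale given its end colour. The columns of knock-out 4 and knock-out 7 are low over most rows and that of wild-type 3 is high over most rows.

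**Figure D2:**
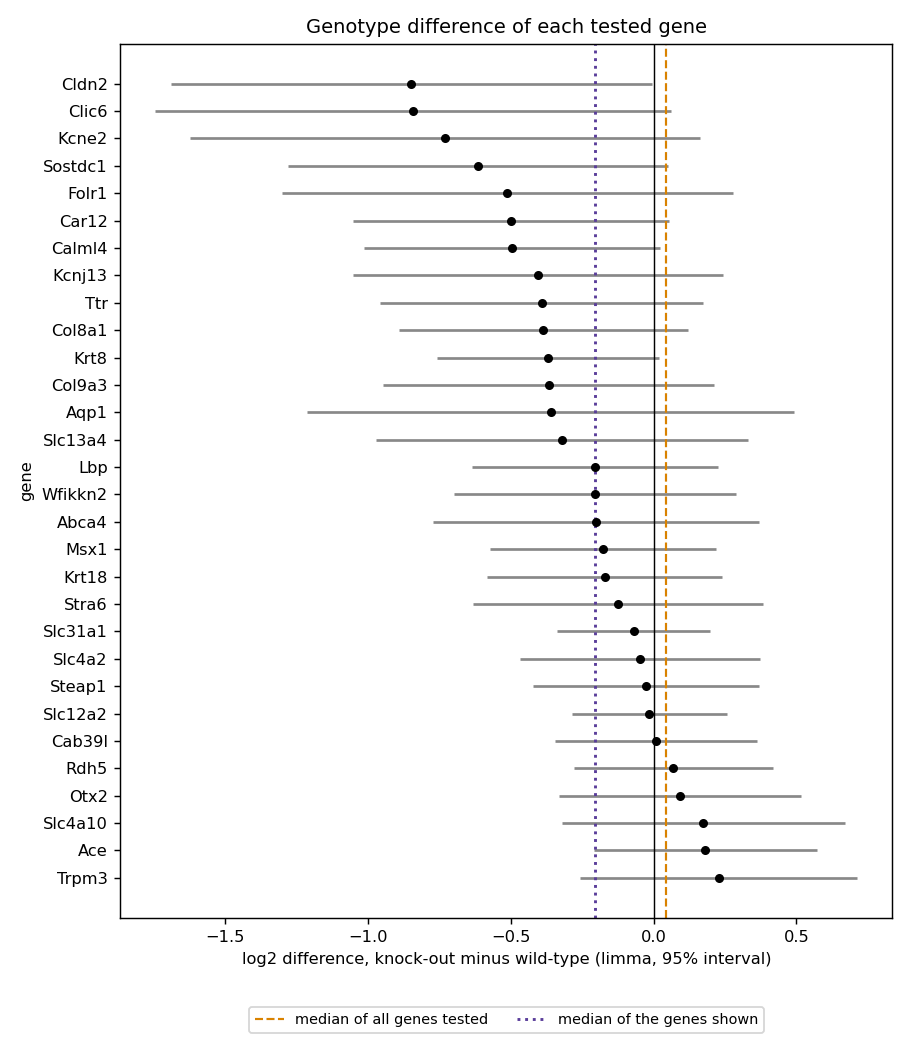
Log2 difference, knock-out minus wild-type, of each tested gene (points) with its 95% interval from limma (bars), and the medians of these genes and of all genes tested (vertical lines). The interval of Cldn2 ends just below 0, and all others include 0.

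Among the secreted and surface proteins, 7 of 8 tested genes had a lower mean in knock-out brains and 1 a higher mean, with a median log2 difference of -0.38 and none past the test. Ttr, which encodes the thyroid hormone and retinol carrier transthyretin, had signals of 7408 to 28623 (median 24170) in knock-out brains, against 20901 to 32620 (median 27743) in wild-type brains. Knock-out 4, at 7408, and knock-out 7, at 17811, were below every wild-type array, and the other knock-out values lay within the wild-type range. The means were 21884 ± 7409 in knock-out and 27043 ± 5144 in wild-type brains (SD, n = 7 and 6), a log2 difference of -0.39 ± 0.27 SE (95% interval -0.96 to 0.17, limma adjusted p = 1.00). The 4 probe sets of Ttr gave differences between -0.35 and -0.61.

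Folr1, the folate receptor that carries folate into cerebrospinal fluid, had 152 to 710 (median 417) in knock-out brains, against 309 to 1173 (median 538) in wild-type brains. Knock-out 7, at 152, and knock-out 4, at 164, were the lowest of all arrays, wild-type 3 was the highest, and the ranges overlapped. The log2 difference was -0.51 ± 0.37 SE (limma adjusted p = 1.00). Sostdc1, a secreted antagonist of BMP and Wnt ligands, had 183 to 647 (median 424) in knock-out brains, against 344 to 1102 (median 615) in wild-type brains. The same 3 embryos formed its extremes, with knock-out 7 at 183, knock-out 4 at 200 and wild-type 3 at 1102. Its log2 difference was -0.61 ± 0.31 SE on the brighter probe set and -0.32 on the other one.

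Kl encodes Klotho, a coreceptor for fibroblast growth factors that is shed into cerebrospinal fluid. Its probe set had 19.9 to 77.3 (median 43.6) in knock-out brains, against 30.9 to 82.1 (median 57.5) in wild-type brains, below the filter, and the groups overlapped. F5, the coagulation factor V gene, was also below the filter, at 2.05 to 45.7 in knock-out brains and 14.8 to 61.6 in wild-type brains. Neither was tested.

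The other secreted or matrix genes had smaller differences. Lbp, which encodes the lipopolysaccharide-binding protein, differed by -0.21, and Wfikkn2, whose secreted product binds TGF-beta family ligands, by -0.20 (log2, knock-out minus wild-type). The collagen genes Col8a1 and Col9a3 differed by -0.39 and -0.37. Col8a1 and Col9a3 separated the low knock-out embryos: Col8a1 was at 61.8 in knock-out 7 and 150 in knock-out 4, whereas Col9a3 was at 312 in knock-out 7 and 136 in knock-out 4. Ace, the angiotensin-converting enzyme gene, had a higher mean in knock-out brains, with 210 to 357 (median 282), against 144 to 375 (median 263) in wild-type brains. Wild-type 2 was the lowest array for Ace, the groups overlapped, and the log2 difference was 0.18 ± 0.18 SE on the brighter probe set and -0.26 on its second probe set.

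The ion and water transport genes make the fluid itself. The knock-out mean was lower for 7 and higher for 2 of the 9 tested genes, with a median log2 difference of -0.36 and none past the test. Clic6, a chloride intracellular channel family gene, had 105 to 684 (median 510) in knock-out brains, against 390 to 1406 (median 692) in wild-type brains. Knock-out 4, at 105, and knock-out 7, at 137, were below all wild-type arrays, while the other 5 knock-out values fell between the wild-type extremes. The log2 difference was -0.84 ± 0.42 SE (95% interval -1.75 to 0.06, limma adjusted p = 1.00), and -0.38 on the second probe set. It was -0.25 without knock-out 4 and knock-out 7.

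Aqp1, the water channel of the ventricular membrane, had 91.1 to 574 (median 417) in knock-out brains, against 245 to 962 (median 412) in wild-type brains. The knock-out median was close to the wild-type one, and the lower knock-out mean came with knock-out 7, at 91.1, and knock-out 4, at 173. The log2 difference was -0.36 ± 0.40 SE, and 0.15 without those 2 embryos. Kcnj13, an inwardly rectifying potassium channel gene, had 95.1 to 317 (median 239) in knock-out brains, against 146 to 476 (median 273) in wild-type brains. Knock-out 4 and knock-out 7 were again below every wild-type array, and the log2 difference was -0.41 ± 0.30 SE.

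Kcne2, a potassium channel subunit gene, had 45.6 to 360 (median 275) in knock-out brains, against 180 to 687 (median 320) in wild-type brains. Car12, a membrane carbonic anhydrase gene, had 78.0 to 246 (median 182) in knock-out brains, against 126 to 353 (median 237) in wild-type brains. Both had their lowest values in knock-out 4 and knock-out 7 and their highest in wild-type 3, with log2 differences of -0.73 ± 0.42 SE for Kcne2 and -0.50 ± 0.26 SE for Car12.

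The other transporters of this group had smaller differences or lay below the filter. Slc12a2, the sodium-potassium-chloride cotransporter gene that neurons and glia also express, differed by -0.02, with 1241 to 1677 in knock-out brains and 1174 to 1910 in wild-type brains, and its other probe sets above the filter gave 0.31 and 0.25. Slc4a2, an anion exchanger gene, differed by -0.05, with its lowest value in knock-out 7 (246) and its highest in wild-type 3 (544). Slc4a5, a sodium bicarbonate cotransporter gene, was below the filter at 5.17 to 94.6 in knock-out and 30.7 to 171 in wild-type brains, with knock-out 7 and knock-out 4 the lowest arrays and wild-type 3 the highest.

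Trpm3, a cation channel gene, had 641 to 914 (median 824) in knock-out brains, against 275 to 987 (median 783) in wild-type brains. Slc4a10, a sodium-driven bicarbonate transporter gene also used by neurons, had 1251 to 1921 (median 1437) in knock-out brains, against 550 to 1896 (median 1606) in wild-type brains. Wild-type 1 was the lowest array for both, at 275 for Trpm3 and 550 for Slc4a10, and the log2 differences were 0.23 and 0.17, and -0.025 and -0.085 without that embryo. The other probe sets of Trpm3 above the filter ranged from -0.29 to 0.52.

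The genes for junctions, cytoskeleton and others had 4 lower and 1 higher knock-out mean among 5 tested, with a median log2 difference of -0.37 and none past the test. Cldn2, the claudin that forms a paracellular pore for cations and water, had 13.7 to 146 (median 88.8) in knock-out brains, against 77.9 to 208 (median 145) in wild-type brains. Knock-out 7, at 13.7, and knock-out 4, at 17, stood below the other knock-out embryos, which began at 86.5, and those 5 lay within the wild-type range. The log2 difference was -0.85 ± 0.39 SE (95% interval -1.69 to -0.01, unadjusted p = 0.048 and adjusted p = 1.00, both limma), and -0.28 without knock-out 4 and knock-out 7. A second, dimmer Cldn2 probe set gave 0.16.

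Calml4, a calmodulin-like gene, had 128 to 402 (median 205) in knock-out brains, against 200 to 481 (median 349) in wild-type brains. Knock-out values were the lower ones in each of the 4 litters that held both genotypes, by -0.52, -0.81, -0.36 and -0.74 in litters 219, 238, 250 and 262, although the pooled groups overlapped. Krt8, whose keratin pairs with that of Krt18 in simple epithelia, had 84.6 to 181 (median 105) in knock-out brains, against 112 to 208 (median 151) in wild-type brains. It too had lower knock-out means in all 4 litters, from -0.86 in litter 238 to -0.18 in litter 250, and its lowest values were those of knock-out 2 and knock-out 3, not of knock-out 4 and knock-out 7. Among the tested genes, Cldn2 (-0.32, -1.61, -0.29 and -1.77) and Msx1 (-0.05, -0.41, -0.24 and -0.28) were also lower in each of these litters, in the same order. The share of all genes lower in all 4 litters was not counted. The pooled log2 differences were -0.50 ± 0.24 SE for Calml4 and -0.37 ± 0.18 SE for Krt8, each with a limma adjusted p of 1.00. A second, dimmer Krt8 probe set above the filter gave -0.87 ± 0.34 SE (adjusted p = 1.00, limma over all probe sets). Krt18 differed by -0.17, and Cab39l, a scaffold gene of the STK11 kinase complex, by 0.01. Tmem72, a transmembrane protein gene, was below the filter at 6.15 to 64.4 in knock-out brains and 12.4 to 49.7 in wild-type brains.

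**Figure D3:**
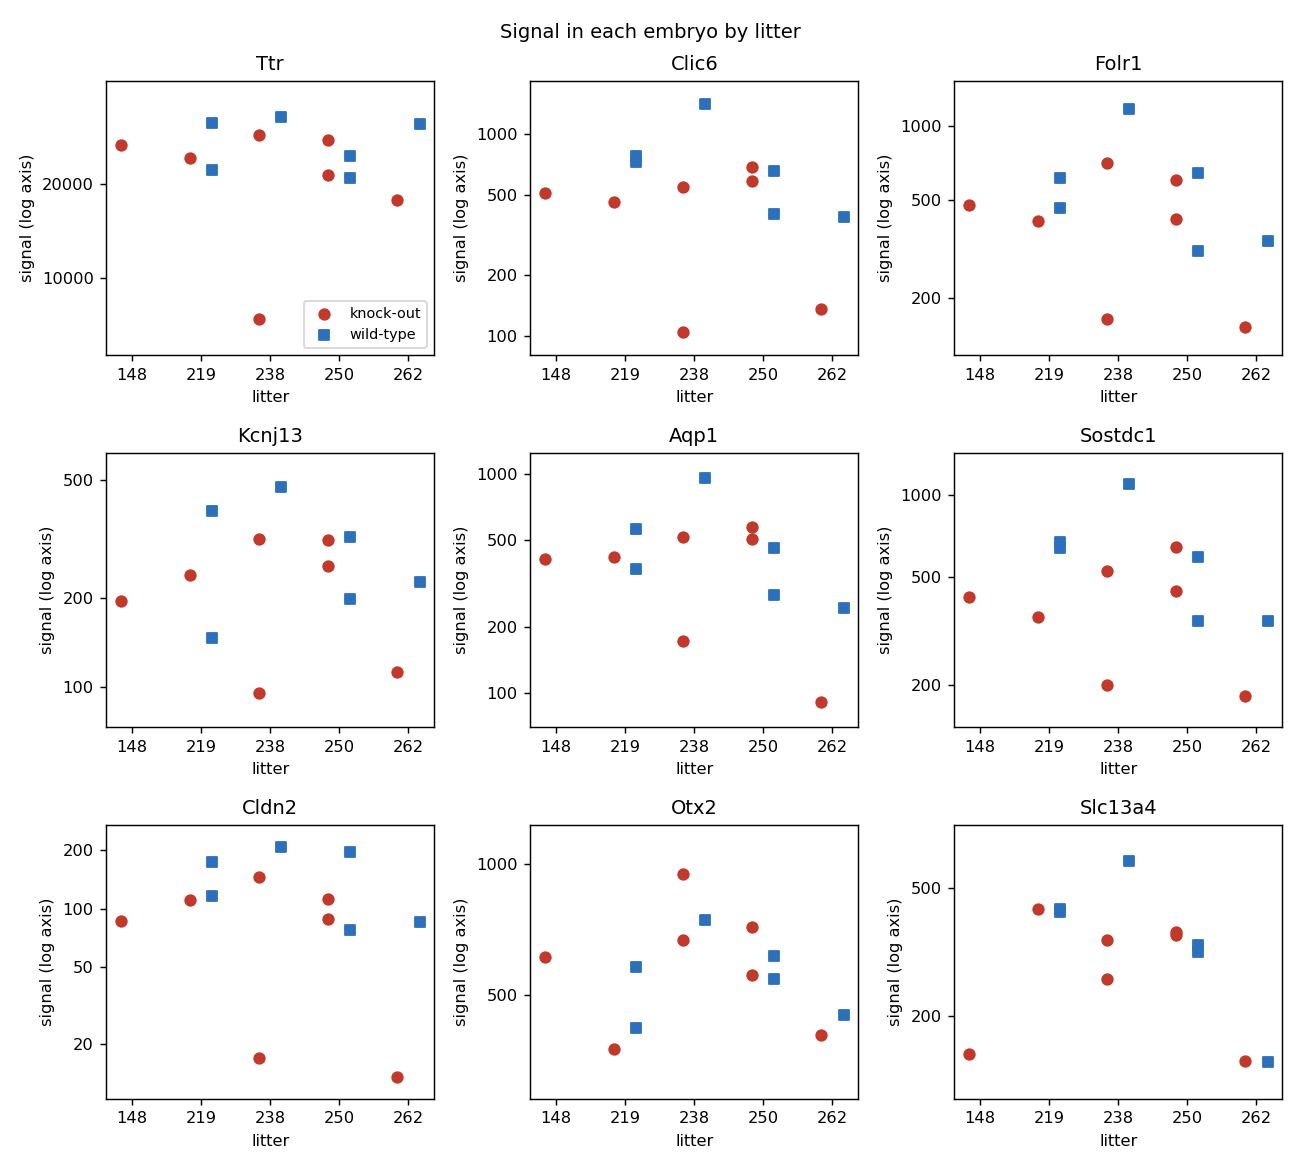
Deposited signal (log axis) of 9 choroid plexus genes in each embryo, with litters along the horizontal axis and knock-out embryos left of wild-type embryos in each litter. For most of the genes, but not for all, the litter 238 points hold the high wild-type 3 and the low knock-out 4. Likewise the litter 262 points hold the low knock-out 7.

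The solute carriers and metabolic genes showed a median log2 difference of -0.10, with 5 of 6 lower, 1 higher and none past the test. Slc13a4, a sulphate transporter gene of choroid plexus and meninges, had 145 to 430 (median 346) in knock-out brains, against 144 to 607 (median 377) in wild-type brains. Its 3 low values were those of wild-type 6 (144), knock-out 7 (145) and knock-out 1 (153), so that both embryos of litter 262 were low whatever their genotype. Abca4, a retinoid transporter gene known from photoreceptors, differed by -0.20, and Stra6, the receptor gene for retinol-binding protein, by -0.12. Slc31a1, a copper importer gene, differed by -0.07, and Steap1, of a metalloreductase family, by -0.03. Rdh5, a retinol dehydrogenase gene, had 106 to 256 (median 161) in knock-out brains, against 116 to 175 (median 158) in wild-type brains, and differed by 0.07 ± 0.16 SE.

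Of the transcription factors that pattern the roof plate and choroid plexus, 2 were tested, Msx1 with a lower and Otx2 with a higher mean in knock-out brains and neither past the test. Otx2, a homeodomain gene needed for choroid plexus formation in mice, had 375 to 945 (median 611) in knock-out brains, against 419 to 742 (median 561) in wild-type brains. Knock-out 4, among the lowest for the transporters, had the highest Otx2 value of all 13 arrays, and the log2 difference was 0.09 ± 0.20 SE. Msx1 had 208 to 531 (median 356) in knock-out brains, against 257 to 475 (median 434) in wild-type brains, and its lowest values were those of both litter 262 embryos. Its log2 difference was -0.18 ± 0.19 SE, and 0.13 on its second probe set. With litter as a block the differences were -0.05 ± 0.14 SE for Otx2 and -0.24 ± 0.093 SE for Msx1 (limma adjusted p = 1.00 each), and median centring put both below 0, Otx2 at -0.10 and Msx1 at -0.37. Lmx1a was below the filter, at 12.9 to 77.5 in knock-out brains and 31.8 to 87.0 in wild-type brains.

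The upstream sequences of the genes were read for the letters bound by factors of this tissue, since many of the genes moved together between embryos. RefSeq windows of 250 bases before to 50 after each annotated start (GRCm38.p6) were at hand for 28 of the 35 genes, with 40 starts. On either strand, the OTX letters TAATCC were present in 3 of these 40 windows (7.5%), against 7.06% of all 32851 windows. The MSX letters TAATTG were in 5 (12.5%), against 8.0%. The RFX letters GTTGCCA were in 2 (5.0%), against 4.38% of all windows, and the forkhead letters GTAAACA in 0 of 40, against 3.65%. By gene, OTX, MSX and RFX matches fell in 3, 4 and 2 of 28, against 8.14%, 9.22% and 5.0% of all genes. Otx2, with several starts, held a match to each of these 3 strings. Of the 13 genes with correlations above 0.7, described below, only Kcnj13 and Wfikkn2 held a match in the windows at hand. A match is a description of the sequence only, and in the windows shown no match overlapped another. The windows of 3 genes whose single match belongs to a different one of the 3 strings found are shown 5′ to 3′ on the gene's strand with the match in capitals, for Kcnj13 (TAATTG, chr1:87394680-87394979, minus strand), Wfikkn2 (GTTGCCA, chr11:94242530-94242829, minus strand) and Abca4 (GGATTA, the reverse complement of TAATCC, chr3:122044210-122044509, plus strand).
Kcnj13: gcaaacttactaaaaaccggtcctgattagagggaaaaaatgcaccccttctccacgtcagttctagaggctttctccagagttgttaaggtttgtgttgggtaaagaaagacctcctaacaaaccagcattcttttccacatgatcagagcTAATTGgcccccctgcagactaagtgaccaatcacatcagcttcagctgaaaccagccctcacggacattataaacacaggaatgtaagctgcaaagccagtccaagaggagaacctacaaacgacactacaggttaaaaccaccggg
Wfikkn2: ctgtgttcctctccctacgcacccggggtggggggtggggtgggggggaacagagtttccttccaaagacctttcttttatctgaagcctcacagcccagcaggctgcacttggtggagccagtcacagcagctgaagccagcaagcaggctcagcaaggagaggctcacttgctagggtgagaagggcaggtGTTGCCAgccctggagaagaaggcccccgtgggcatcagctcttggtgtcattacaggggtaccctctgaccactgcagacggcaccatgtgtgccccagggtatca
Abca4: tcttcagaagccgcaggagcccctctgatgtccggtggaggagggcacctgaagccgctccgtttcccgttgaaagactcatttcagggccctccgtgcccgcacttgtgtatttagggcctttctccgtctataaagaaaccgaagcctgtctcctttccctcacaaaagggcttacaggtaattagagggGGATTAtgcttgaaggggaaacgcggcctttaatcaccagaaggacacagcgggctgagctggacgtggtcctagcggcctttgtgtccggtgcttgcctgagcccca
The matches began 98, 57 and 58 bases before the annotated starts of Kcnj13, Wfikkn2 and Abca4. The correlations with the other choroid plexus genes, described below, were 0.85 for Kcnj13, 0.80 for Wfikkn2 and 0.53 for Abca4. A correlation limit of 0.7 entered the choice of windows shown, so this contrast does not link the letters with how genes moved.

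Variation between embryos was larger for these genes than for most. The standard deviation over 13 arrays (log2) had a median of 0.46 for the 30 tested genes, against 0.27 for all genes, and 28 of the 30 lay above that all-gene median. Genotype accounted for a median of 7.02% of the variance, against 2.87% over all genes, and litter, fitted alone with 5 litter means to 13 arrays, for 35.6%, against 42.2% over all genes.

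Each gene was then set against the mean of the other tested choroid plexus genes, after subtracting the genotype means. Across the 13 arrays, of which littermates share a litter, the correlation had a median of 0.63 and ran from -0.12 for Ace to 0.92 for Sostdc1, while all genes had a median of 0.20 with the mean of the set. A group of 13 genes lay above 0.7, a limit chosen after the values were seen: Folr1, Kcnj13, Clic6, Aqp1, Sostdc1, Cldn2, Kcne2, Car12, Lbp, Calml4, Wfikkn2, Col8a1 and Krt18. All 13 had a lower mean in knock-out brains, with a median log2 difference of -0.50, and their highest signal was 2.54 to 11.8 times their lowest over the 13 arrays. The other 17 included Ttr, Otx2, Msx1, Slc12a2, Slc4a2, Slc4a10 and Trpm3, and had 11 lower means, a median of -0.05 and highest-to-lowest ratios of 1.62 to 4.49. Correlations between pairs had a median of 0.81 within the 13 and 0.17 within the 17. The split was made on correlations within this set on these same arrays, so the contrast in pair correlations follows from it. As the 13 moved together, their lower means are not 13 separate results. The split is a description without a test.

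The low embryos differed from each other. Knock-out 4 was below every wild-type array for 16 of the 30 genes (10.6% of all genes) and knock-out 7 for 21 (18.6% of all genes). Both were for 14, for which the share of all genes was not counted. Wild-type 3 was above every knock-out array for 21 (11.1% of all genes). Against the median of the other embryos of the same genotype on the log2(signal + 16) scale, knock-out 4 was lower by a median factor of 1.33 over the 30 genes and knock-out 7 by 1.68, and wild-type 3 was higher by 1.44. These 3 embryos were picked by these same values, and the factors have no value over all genes beside them. Knock-out 4 had the lowest Ttr, Clic6, Kcnj13, Kcne2 and Col9a3, with Slc13a4 at 260, Msx1 at 356 and the highest Otx2. Knock-out 7 had the lowest Folr1, Aqp1, Sostdc1, Cldn2, Car12, Col8a1 and Msx1, with Otx2 at 405.

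The genotype difference was then taken within litters, since littermates of both genotypes were present in 4 of 5. Litter 219 holds none of the 3 embryos with many extreme values. Its 1 knock-out was set against wild-type 1 and wild-type 2, the arrays of lowest median signal (82.9 and 86.0). Wild-type 2 also had the highest Actb ratio, 2.92. In this litter the 30 genes had a median log2 difference of -0.12 (22 lower, 8 higher), against 0.16 over all genes, of which 30.1% were lower. In litter 238 it was -0.84 (27 lower, 3 higher), against -0.04 over all genes, with Clic6 at -2.45. In litter 250, which also holds none of those 3 embryos and has 2 of each genotype, it was 0.12 (7 lower, 23 higher), against 0.03 over all genes. In litter 262 it was -0.55 (25 lower, 5 higher), against -0.03 over all genes. Litters 238 and 262 are those that hold wild-type 3, knock-out 4 and knock-out 7, and knock-out 3, the littermate of knock-out 4, had Ttr at 28623 and Clic6 at 546, within the wild-type range.

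**Figure D4:**
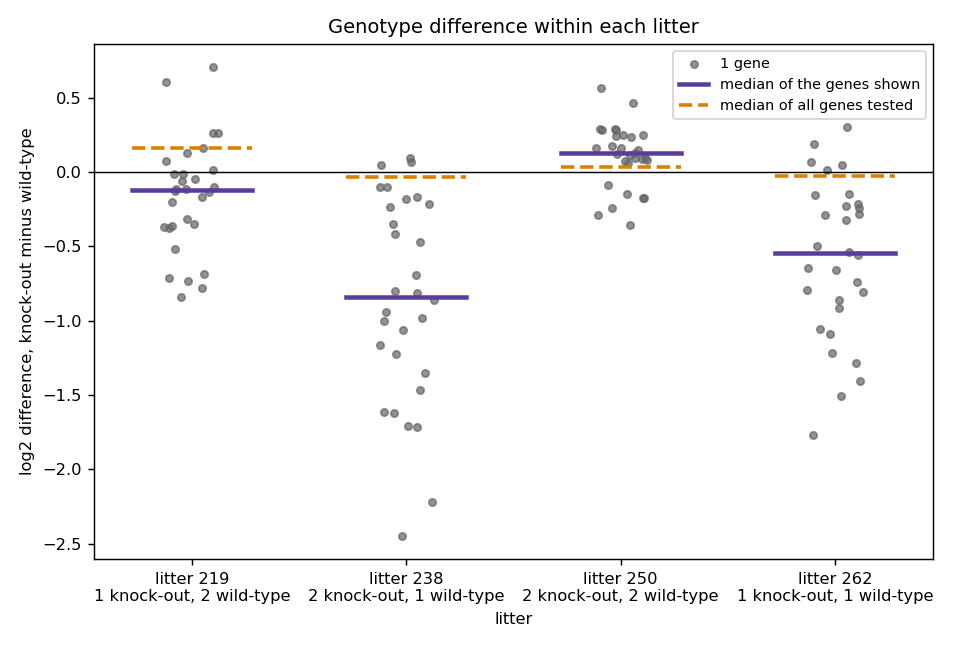
Log2 difference, knock-out minus wild-type, of each tested choroid plexus gene (points) within each litter that held both genotypes, with the median of these genes and of all genes marked. Points lie mostly below 0 in litters 238 and 262 and mostly above 0 in litter 250.

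A test of whether the genotype difference itself varied between those 4 litters passed for 0 of the 30 genes and for 0% of all genes (limma moderated F, 12 arrays, 4 residual degrees of freedom). At an unadjusted p under 0.05 it gave 3 genes, Slc13a4, Wfikkn2 and Lbp, against 1.42% of all genes. With litter as a block, 27 of the 30 genes had a lower mean in knock-out brains, against 35.4% of all genes. The median was -0.24, against 0.04 over all genes, and 0 passed (0.0232% of all genes did). Calml4, Krt8 and Msx1 were then the 3 with an unadjusted p under 0.05, a level that 0.565% of all genes reached as lower in knock-out brains. The litter block gave no weight in the genotype difference to knock-out 1, which had no littermate.

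Litter after genotype gave 0 of the 30 genes past the test, against 0.0387% of all genes, and 4 at an unadjusted p under 0.05, against 15% of all genes. Those 4 were Msx1 (limma adjusted p = 0.0927), Slc13a4 (0.124), Otx2 (0.214) and Abca4 (0.325). Litter fitted alone, without genotype, accounted for 83%, 84.1%, 74.5% and 59.2% of their variance. These 4 were picked by their p for litter, so high shares follow from the choice. The median share was 35.6% over the 30 genes and 42.2% over all genes. Without wild-type 1 both Msx1 (0.0337) and Slc13a4 (0.0421) passed, and without wild-type 2 Msx1 did (0.0415), while 545 and 102 of the 12920 genes passed under those settings, against 5 with all arrays. These 4 were not among the 13 genes with correlations above 0.7, and for Clic6 and Ttr the adjusted p for litter was 0.684 and 0.948.

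Markers of other cell types were read on the same arrays. Meninges and choroid plexus stroma genes (12 of 12 tested, 6 lower and 6 higher, 0 called, median -0.02, with Dcn, Col1a1 and Col3a1 the nearest to the threshold) had a summed signal of 9897 to 25824 in knock-out and 10746 to 30332 in wild-type brains. Their sum was lowest in the litter 262 embryos, knock-out 7 at 9897 and wild-type 6 at 10746, and highest in wild-type 3 at 30332, while knock-out 4 had 23101. Slc13a4 and Msx1 were also low in both embryos of litter 262. In knock-out 1, where the sum was 15260, Slc13a4 was low (153) but Msx1 was the highest of all arrays (531). The part of this tissue in those values was not tested. The summed multiciliated and ependymal genes (12 of 15 tested, 9 lower and 3 higher, 0 called, median -0.15, with Tekt4, Dynlrb2 and Spag6l first by p) were 3084 to 4121 in knock-out and 2024 to 4669 in wild-type brains. Rfx3, with a mean signal of 1817 in knock-out and 1783 in wild-type brains, contributed most to their sum. The sum was lowest in wild-type 1, at 2024, the embryo that was also lowest for Trpm3, Slc4a10 and Cab39l. Its array also had the lowest median signal of all, 82.9. The part of these cells or of the array in those values was not tested.

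Endothelial genes (7 of 7 tested, 2 lower and 5 higher, 0 called, median 0.12, with Plvap, Pecam1 and Cdh5 first by p) summed to 5185 to 8032 in knock-out and 5944 to 7547 in wild-type brains, with knock-out 7 the lowest. Neuronal genes (7 of 7 tested, 2 lower and 5 higher, 0 called, median 0.05, with Dcx, Map2 and Rbfox3 first by p) summed to 69684 to 87434 in knock-out and 63882 to 83788 in wild-type brains, with knock-out 7 the highest. The part of these shifts in the choroid plexus values of knock-out 7 was not tested.

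Most marker genes of tissues beside the brain lay below the filter. Of 11 retinal pigment epithelium genes 2 were tested, Rlbp1 at a log2 difference of -0.07 and Dct at 0.16. Rlbp1, which glia also express, had a mean signal of 1207 in knock-out and 1275 in wild-type brains and made up most of the list's sum, and the others lay below the filter, with Rpe65 at no more than 19.5 and Mlana at no more than 9.90 on any array. The list summed to 1233 to 1895 in knock-out and 1301 to 2058 in wild-type brains. Retina and lens genes had 2 tested of 12, Atoh7 at 1.26 (limma adjusted p = 1.00; highest signal 401) and Nrl at 0.03, and sums of 312 to 589 in knock-out and 244 to 401 in wild-type brains. Liver and serum genes had 2 tested of 9, Apoa1 at 0.10 and Rbp4 at -0.08, with Alb at no more than 62.1 and Afp at no more than 24.3, and sums of 294 to 499 in knock-out and 326 to 560 in wild-type brains. Surface epithelium genes had 2 tested of 9, Epcam at 0.47 and Cdh1 at -0.03 (highest signal 403), with sums of 431 to 781 in knock-out and 365 to 830 in wild-type brains. Pituitary genes had 1 tested of 8, Pomc at -0.07, with sums of 228 to 446 in knock-out and 283 to 440 in wild-type brains. None of these genes passed the test.

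**Figure D5:**
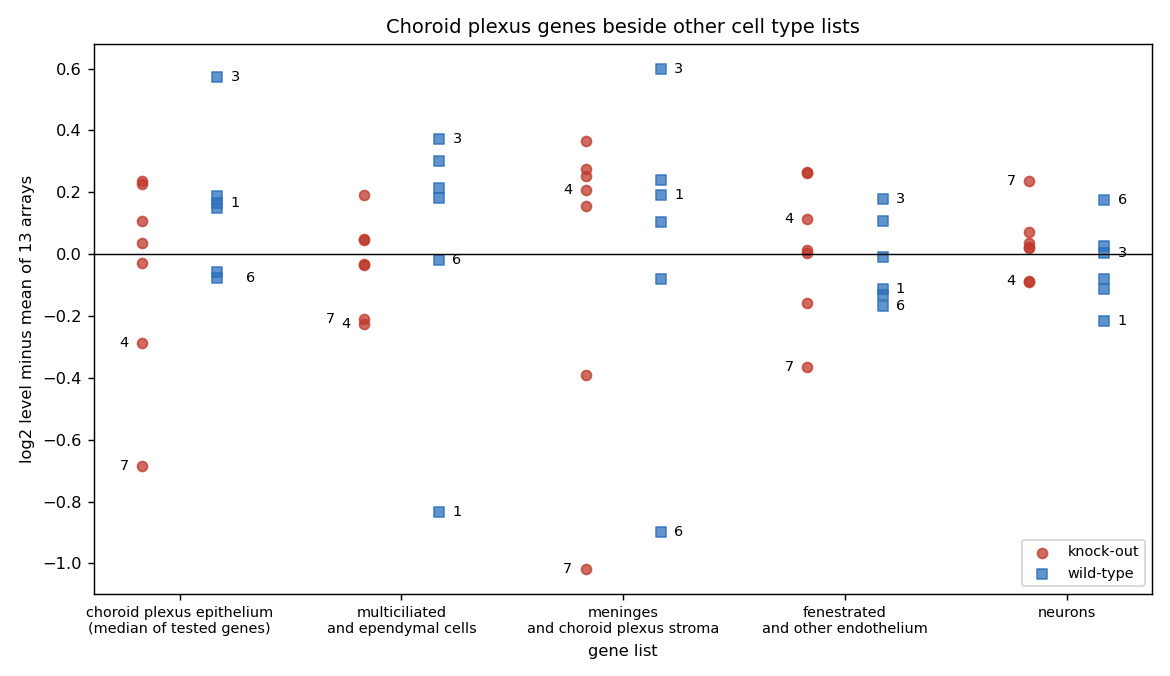
Level of the choroid plexus set and of other cell type lists in each embryo, as the log2 difference from the mean of 13 arrays, knock-out left of wild-type, with knock-out 4 and 7 and wild-type 1, 3 and 6 numbered. The measures are unlike: the choroid plexus set is the median over its tested genes, and each other list is its summed signal, in which bright genes weigh most. Knock-out 7 is low for choroid plexus, meninges and endothelium, and knock-out 4 is low for choroid plexus but not for meninges.

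A further list of choroid plexus genes, many of them also active in other brain cells, had 30 of 38 tested, 16 lower and 14 higher, 0 called and a median log2 difference of -0.00, which is nearer to the 0.04 of all genes. Ecrg4, which encodes a secreted peptide precursor, differed by -0.66, Ezr, the microvillar linker ezrin, by -0.24, and the claudin gene Cldn3 by 0.34. The 10 genes outside the 38 whose pattern was most like the set's mean, by Pearson correlation over 13 arrays after subtracting genotype means, were Ahcyl2 (0.95), Ecrg4 (0.94), Car14 (0.92), Myh9 (0.90), 4933407L21Rik (0.90), Sp1 (0.89), Micos10 (0.89), Smim22 (0.89), Defb11 (0.89) and Frem1 (0.88). Ecrg4 and Car14, a membrane carbonic anhydrase gene, were on the further choroid plexus list. Ecrg4 had 442 in knock-out 4 and 389 in knock-out 7, against 2527 in wild-type 3. Defb11, a beta-defensin gene, had 23.7 in knock-out 4 and 34.4 in knock-out 7, against 830 in wild-type 3. Their log2 differences between genotypes were -0.66 ± 0.31 SE for Ecrg4 and -0.87 ± 0.56 SE for Defb11, each with a limma adjusted p of 1.00.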

How the data were processed

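Total RNA of 13 whole brains, 1 embryo per array, was labelled from 5 µg per the labels' protocols. The deposited values are linear probe set intensity values, per the labels' and the table's content; the authors' software, summary method and scaling are not given in the sources used here. The number of arrays limits the precision. Litter was read from the leading number of each embryo label, and the design states 5 litters. The members and all gene lists were chosen with earlier results of these data known.

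Of 45101 probe sets, 64 were controls, 34945 carried 1 gene symbol in the platform annotation, 932 several and 9160 none. Each gene took its single-symbol probe set of highest mean signal. Genes whose mean log2 lay below the 40th percentile of probe sets (a signal of 56.9) were left out. Signals were not rescaled. Tests used limma 3.58.1 (R 4.3.3; lmFit, eBayes) on log2(signal + 16), two-sided, Benjamini-Hochberg over 12920 genes at 0.05, so differences of low genes are understated. A log2 difference is knock-out minus wild-type. Fits were genotype alone (11 residual degrees of freedom), genotype with litter (7) and litter by genotype (4). The steps were tested on simulated data.

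Signals of different probe sets were not compared. Full values were given for Ttr, Clic6, Kl, Folr1, Kcnj13, Otx2, Aqp1, Sostdc1 and up to 4 further genes per direction with the smallest p, and up to 3 tested genes were named per marker list. The 10 genes of most similar pattern were ranked by correlation with the mean standardized value of the tested genes. Pairing was checked on deviations from group means. Littermate pairs had a median correlation of 0.08 (13 pairs) and others of -0.11 (65 pairs). The 6 pairs of embryos that share a title number had a median of 0.10 (-0.26 to 0.40). Some of them are littermates, so these values cannot tell number from litter. The number was used as a block only in an alternative, in which knock-out 7 had no wild-type partner. Alternatives covered pseudocount, scaling, filter, probe set choice, RNA quality, blocks, litters and single arrays. Promoter windows came from RefSeq (GRCm38.p6).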

Additional observations from a re-analysis of the deposited data

Results flagged for a closer look

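Of 72 groups of values examined for the 35 genes and the set's median level, 1 per genotype each, 9 held 1 embryo far from the rest of its group, its gap to the nearest value, on the log2(signal + 16) scale, being above Dixon's 95% critical share of the range. Chance flags about 1 in 20 groups under that rule where values are normal, the genes are correlated so that the groups are not independent, and a log scale widens gaps at the low end. All 9 were low values. In knock-out brains, Ttr was at 7408 in knock-out 4 (others 17811 to 28623), Col9a3 at 136 in knock-out 4 (others 312 to 536), Slc31a1 at 491 in knock-out 7 (others 673 to 824) and Lmx1a at 12.9 in knock-out 6 (others 50.1 to 77.5). In wild-type brains, wild-type 1 was low for Trpm3 at 275 (others 711 to 987), Slc4a10 at 550 (others 1522 to 1896) and Cab39l at 227 (others 405 to 514). Wild-type 6 was low for Msx1 at 257 (others 410 to 475), and wild-type 2, the array with the highest Actb ratio, for Rdh5 at 116 (others 157 to 175).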

How the results depend on the processing

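No choroid plexus gene passed the genotype test under any of the 33 alternatives, where the smallest adjusted p was 0.635, and none passed the test of whether the genotype difference varied between litters under the 30 in which it was run. The genes called over all genes numbered 2 to 4. The 5 genes of low signal entered the test only with no filter, where 29 of 35 were lower and the median was -0.24. Of all genes, 36.7% were then lower, with a median of 0.04. The set's median stayed below 0 except without wild-type 3, knock-out 4 and knock-out 7 (0.07), and ran from -0.41 without litter 250 to -0.08 without litter 238 and -0.03 without knock-out 4 and 7. Leaving out 1 array gave -0.33 to -0.10. Median centring, which moved the median of all genes to -0.15 with 87.7% of them lower, gave 29 lower and 1 higher and a median of -0.40, and quantile normalization 26 and 4 and -0.37, with all genes at -0.03 and 60.8% lower. With litter as a fixed replicate block the median was -0.24 (27 lower), as a random block -0.21 (25 lower), and with the title number as a block -0.10 (21 lower), none changing a call. Over all genes the medians were 0.04, 0.04 and 0.06, with 35.4%, 34.3% and 28.7% lower, in that order. No wild-type embryo shares the title number of knock-out 7, so the number block repeated the differences found without knock-out 7. It is not a separate check. Likewise the fixed litter block gave no weight in the genotype difference to knock-out 1, which had no littermate.

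Litter passed for 2 of the genes with quantile normalization (52 of all genes), 1 with median centring (51), 2 without litter 219 (1358), 1 without litter 238 (4), 1 without wild-type 2 and knock-out 1 (74), and 0 to 2 without 1 array (2 without wild-type 1, where 545 of all genes passed, and 1 without wild-type 2, where 102 did). The genes were Slc13a4 and Msx1, and the cause was not tested.

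Of the 30 genes, 21 changed the sign of their log2 difference under at least 1 alternative, some from well below 0 where embryos chosen by their values were left out together. The causes were not tested. Quantile normalization gave Cab39l -0.10 and Rdh5 -0.10. Median centring gave Otx2 -0.10, Slc4a10 -0.023, Cab39l -0.19, Ace -0.016 and Rdh5 -0.13. The mean of all probe sets gave Slc31a1 0.0068, Slc12a2 0.18 and Ace -0.042. The Actb ratio as a covariate gave Slc31a1 0.0021, Slc12a2 0.049 and Steap1 0.076. Without litter 219 they were Trpm3 -0.054, Slc4a10 -0.080, Steap1 0.014 and Cab39l -0.13. Without litter 238 they were Wfikkn2 0.015, Slc12a2 0.068, Slc4a2 0.12 and Stra6 0.092. Without litter 262 they were Slc12a2 0.035, Steap1 0.015 and Cab39l -0.0020. The litter block gave Otx2 -0.048, Cab39l -0.00092 and Rdh5 -0.019, the random block Cab39l -0.0017, and the number block Slc31a1 0.011, Slc12a2 0.033 and Slc4a2 0.051. The values of the number block are those found without knock-out 7. Without wild-type 2 and knock-out 1 they were Slc12a2 0.026, Steap1 0.050 and Rdh5 -0.057. Without knock-out 4 and 7 they were Aqp1 0.15, Lbp 0.014, Slc31a1 0.012, Slc12a2 0.077, Slc4a2 0.12, Abca4 0.0068, Cab39l -0.019 and Krt18 0.032. Without these and wild-type 3 they were Folr1 0.17, Kcnj13 0.095, Aqp1 0.38, Kcne2 0.0092, Lbp 0.13, Wfikkn2 0.12, Col9a3 0.027, Slc13a4 0.019, Slc31a1 0.031, Slc12a2 0.13, Slc4a2 0.21, Steap1 0.061, Abca4 0.090, Stra6 0.072 and Krt18 0.14. Leaving out 1 array at a time turned Trpm3 (-0.025 to 0.33), Slc4a2 (-0.16 to 0.051), Slc4a10 (-0.085 to 0.27), Cab39l (-0.15 to 0.072), Slc12a2 (-0.093 to 0.045), Steap1 (-0.17 to 0.082), Rdh5 (-0.034 to 0.16), Stra6 (-0.22 to 0.0095), Otx2 (-0.021 to 0.20) and Slc31a1 (-0.12 to 0.011). The alternatives without several named embryos together were chosen after seeing the data.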
